A study of Mus musculus with 9 samples.

Results

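The 36 genes described here are markers of macrophages and of leukocytes in general, read in a table of all genes from sorted embryonic mouse kidney cells. They were matched by gene symbol among 24539 genes with a normalized count, and all 36 were found and tested. The libraries came from kidneys of CD1 mice at E18.5, dissociated and sorted by an antibody to CD133, the product of Prom1. This membrane protein marks the apical side of proximal tubule and some other epithelial cells, and the labels call what was sorted proximal tubule cells. There were 9 libraries in 3 groups of 3. Controls carried Tsc1 fl/fl and no Cre, although their titles name them wild type, and their dams received vehicle (DMSO). The other groups were Six2 Cre Tsc1 fl/fl mutants whose dams received vehicle, or rapamycin at 0.2 mg/kg by injection every second day of gestation from E12.5 to E16.5. Thus every library carried floxed Tsc1 alleles, and controls given rapamycin are not analysed here. Six2 drives the Cre in nephron progenitors, so the deletion is directed to the nephron lineage, from which macrophages are not known to descend. Tsc1 encodes hamartin, a brake on the kinase complex mTORC1, which rapamycin inhibits. The labels give replicates only a number and do not say whether a library is 1 embryo or a pool, so a p-value here reflects only how far these libraries scatter, and part of that scatter may be technical.

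Fetal kidney macrophages arise largely from yolk sac and fetal liver progenitors. They settle around developing nephrons and vessels, clear dying cells and depend on the receptor Csf1r. Their identity is set by the transcription factor PU.1, encoded by Spi1. Typical products are the complement C1q chains, the scavenger receptors Mrc1 and Cd163, the adapter Tyrobp and the cysteine protease cathepsin S (Ctss). Neutrophils carry the calcium-binding proteins S100a8 and S100a9, and stimulated myeloid cells secrete the chemokines Ccl3 and Ccl4.

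Promoter sequences are shown first, because PU.1 binds purine-rich boxes with a known core and Spi1 is itself among the 36 genes. RefSeq promoters (GRCm38.p6, 250 bases before to 50 after the start) were matched for 27 of the 36 genes. The core GAGGAA, searched on both strands, occurred in 18 of these 27, or 66.7%, and in 31.3% of the 27025 genes with a promoter in the same table. The longer GAGGAAGT, which contains the shorter motif and was also searched on both strands, occurred in 6 of 27, or 22.2%, and in 3.69% of all genes. Those 6 were C1qc, Cd53, Ctss, F13a1, Pf4 and S100a8. The TATA box core TATAAA, searched likewise on both strands, occurred in 5 of 27 and in 15.7% of all genes. The 6 promoters printed below all hold the core GAGGAA, so no promoter without it is shown. They span the patterns of the results: C1qb, C1qc, Ctss and Pf4 varied together over the libraries, while Ccl3 and S100a8 each followed another course. Each is written 5′ to 3′ on its gene's own strand, with the core, or its reverse complement where it lies on the other strand, in capitals. A match describes letters in this window and is not a measured binding site.
C1qb (chr4:136886151-136886450, minus strand): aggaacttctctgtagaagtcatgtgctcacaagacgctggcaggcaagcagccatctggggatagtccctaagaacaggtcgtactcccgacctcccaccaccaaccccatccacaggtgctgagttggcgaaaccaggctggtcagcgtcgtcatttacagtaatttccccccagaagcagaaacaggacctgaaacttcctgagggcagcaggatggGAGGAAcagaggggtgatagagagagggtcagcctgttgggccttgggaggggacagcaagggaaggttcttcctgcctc
C1qc (chr4:136892865-136893164, minus strand): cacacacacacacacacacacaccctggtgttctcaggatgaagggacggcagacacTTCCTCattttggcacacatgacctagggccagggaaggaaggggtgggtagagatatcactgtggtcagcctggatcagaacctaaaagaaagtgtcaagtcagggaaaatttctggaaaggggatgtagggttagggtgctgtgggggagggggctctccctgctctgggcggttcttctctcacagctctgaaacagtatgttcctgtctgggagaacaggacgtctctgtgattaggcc
Ctss (chr3:95526536-95526835, plus strand): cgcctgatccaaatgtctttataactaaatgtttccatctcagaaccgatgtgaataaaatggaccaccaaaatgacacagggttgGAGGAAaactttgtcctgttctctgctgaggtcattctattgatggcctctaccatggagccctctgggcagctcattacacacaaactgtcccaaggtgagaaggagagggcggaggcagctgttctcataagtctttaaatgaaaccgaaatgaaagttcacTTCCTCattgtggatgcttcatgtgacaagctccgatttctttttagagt
Pf4 (chr5:90772185-90772484, plus strand): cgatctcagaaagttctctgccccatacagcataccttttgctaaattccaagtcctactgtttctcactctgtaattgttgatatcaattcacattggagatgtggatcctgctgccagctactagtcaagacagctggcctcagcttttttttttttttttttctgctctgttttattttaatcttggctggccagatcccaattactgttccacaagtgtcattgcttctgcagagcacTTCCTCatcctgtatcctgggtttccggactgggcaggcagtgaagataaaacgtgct
Ccl3 (chr11:83649329-83649628, minus strand): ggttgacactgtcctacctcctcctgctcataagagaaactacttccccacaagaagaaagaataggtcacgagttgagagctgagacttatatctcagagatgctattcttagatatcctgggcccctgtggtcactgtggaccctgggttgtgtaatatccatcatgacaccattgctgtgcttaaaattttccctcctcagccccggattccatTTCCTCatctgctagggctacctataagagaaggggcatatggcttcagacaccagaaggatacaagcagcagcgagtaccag
S100a8 (chr3:90668821-90669120, plus strand): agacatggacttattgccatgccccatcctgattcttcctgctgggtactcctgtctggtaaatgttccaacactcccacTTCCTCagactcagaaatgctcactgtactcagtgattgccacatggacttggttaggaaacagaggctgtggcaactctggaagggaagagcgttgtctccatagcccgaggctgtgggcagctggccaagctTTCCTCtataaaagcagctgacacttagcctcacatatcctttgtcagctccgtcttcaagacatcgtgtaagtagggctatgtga

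Counted from the RefSeq start, where base 1 is the first transcribed base, the motif lay at -30 to -25 in C1qb and at -193 to -188 in C1qc. In Ctss it lay at -164 to -159 and again at 1 to 6. It was at -8 to -3 in Pf4 and at -33 to -28 in Ccl3. S100a8 held it at -170 to -165 and at -36 to -31.

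Library totals ranged from 23372093 to 32669791 counts. Values below are normalized counts, the raw counts divided by 1 size factor per library (0.874 to 1.19). The lowest raw count of any of the 36 genes in any library was 50 (Cd52), and 32 of the 36 had at least 100 in every library. The sort marker Prom1 had 2543 to 3091 normalized counts in the controls, 2833 to 3362 in the mutants given vehicle and 2453 to 2773 in the mutants given rapamycin, and the proximal tubule receptor Lrp2 had 7607 to 12076, 12586 to 15678 and 17376 to 26621. The labelled cell type was thus present by its markers, alongside macrophage RNA in every library. Control 1 and rapamycin 2 stood apart by the share of reads on Gm42418, Gm26917 and Lars2, genes that collect ribosomal RNA reads: 8.1% and 4.79%, against 0.537% to 1.61% in the other 7. Control 1 also had the highest summed erythroid level, 5007 normalized counts. Six3, a neighbour of Six2, was near 0 in the controls (2.20, 0.898 and 2.76) and lay between 875 and 1074 in all 6 mutant libraries. A count over the whole Tsc1 gene does not check the deletion.

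Summed over the 36 genes, macrophage and leukocyte transcripts took 0.122% to 0.165% of all normalized counts in the controls. The sums were 44904, 32681 and 45191 normalized counts in controls 1, 2 and 3, 40810.4, 77930.4 and 61093 in mutant vehicle 1, 2 and 3, and 39993, 36609 and 47819.7 in rapamycin 1, 2 and 3, the replicate order kept throughout. Mutant vehicle 2 and 3 stood above all other libraries, at 0.301% and 0.234%, while mutant vehicle 1 and the rapamycin libraries lay within or close to the control range. In bulk RNA, fewer cells of a type and less RNA per cell cannot be told apart.

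Per kilobase of annotated exon, the C1q chains were among the 7 highest of the 36 genes in the controls. There C1qa had 2159 normalized counts per kilobase, C1qb had 1744 and C1qc had 1179. Lysozyme (Lyz2) had 1263 and the oxidase subunit Cyba 1835. Csf1r, the receptor for the macrophage growth factors Csf1 and Il34, had 878 per kilobase, the mannose receptor Mrc1 735, and the integrin chain Itgam, a marker of monocytes and neutrophils, only 14.0. The neutrophil protein S100a9 was the highest of all 36 in the controls, at 3732 per kilobase, but had 1402 and 1210.5 in the 2 mutant groups. Ptprc (CD45), present on all leukocytes, had 28.9, a value divided by all 18313 annotated exon bases of the gene. Its normalized counts in controls 1, 2 and 3 were 681, 507 and 399. Annotated bases that the transcripts present lack make a level per kilobase too low. Lyz2 has the close paralog Lyz1, and Fcgr3 resembles Fcgr2b and Fcgr4, so reads could be split between them.

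**Figure D1:**
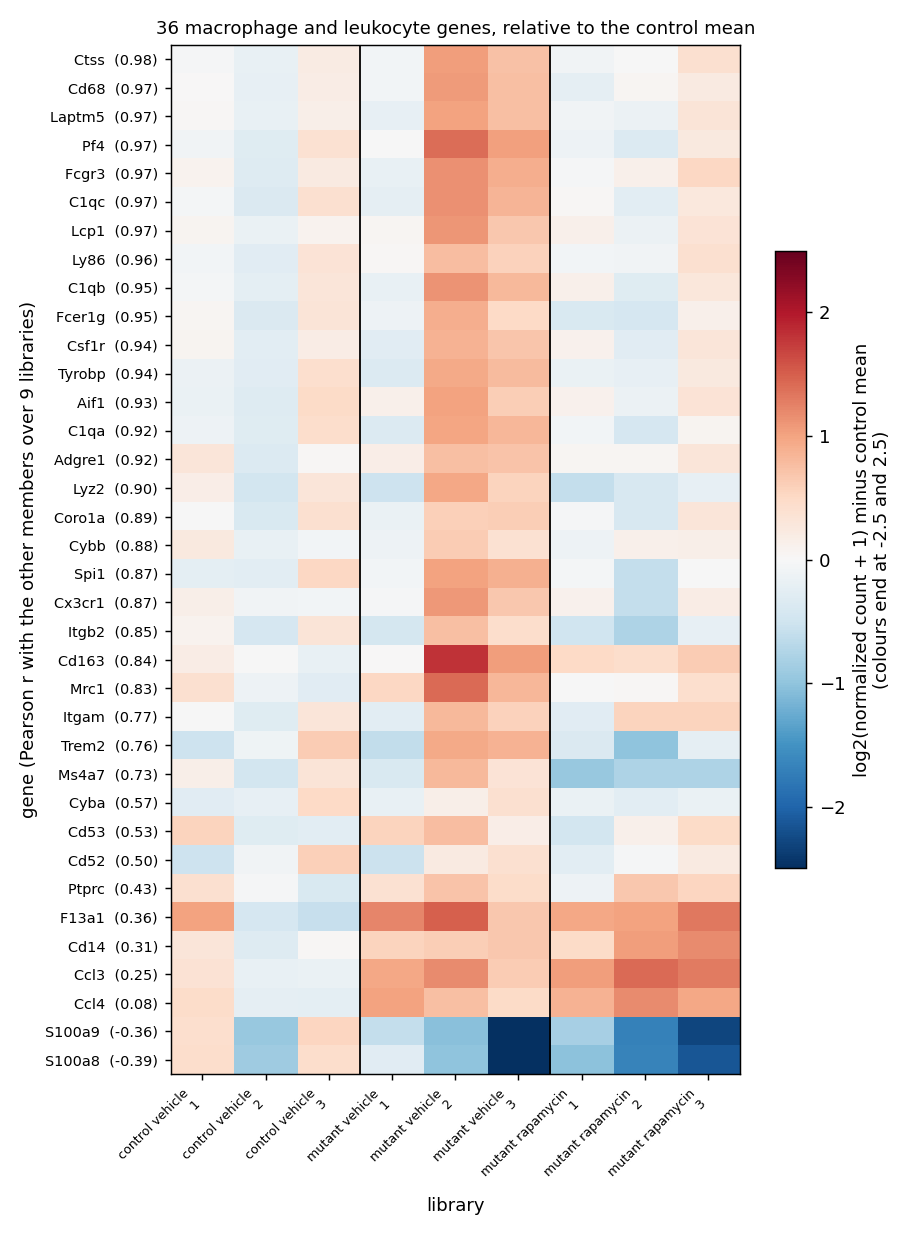
Each row is 1 of the 36 genes and each column 1 of the 9 libraries, and colour gives log2(normalized count + 1) minus the mean of the 3 controls, with genes ordered by Pearson r with the mean of the other genes over the libraries. Mutant vehicle 2 and 3 form a warm pair of columns over most genes, Ccl3, Ccl4 and Cd14 are warm in all 6 mutant columns, and S100a8 and S100a9 run the other way.

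The first comparison asked how these genes differed between mutants and controls when both received vehicle. The log2 fold change was positive for 34 of the 36 genes, with a median of 0.52, against -0.01 over all 19656 genes tested, of which 49.2% were positive. Mutant vehicle 1 lay at control level for most genes while mutant vehicle 2 and 3 lay far above it, and no single gene passed limma's test. The count was 0 of 36 at an adjusted p under 0.05, where 1.42% of all genes were called, 1.05% higher and 0.366% lower. It was also 0 by limma-voom, and 13 of 36 had an unadjusted p under 0.05, against 10.1% of all genes. By the authors' deposited table, adjusted p-values were under 0.05 for 3 of the 36, namely Ccl3, Mrc1 and Cd163.

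Among the regulators and receptors, Csf1r (ENSMUSG00000024621, chr18:61105572-61132149, GRCm38) had 5285, 4182 and 5741 in the controls, 4133, 9204 and 8177 in the mutants given vehicle and 5414, 4137 and 6161 in the mutants given rapamycin. Mutant vehicle 2 and 3 exceeded all other libraries, and mutant vehicle 1 was the lowest of the 9. The fold change was 0.43 ± 0.27 on the log2 scale (SE, n = 3 per group, limma adjusted p = 0.699). Cx3cr1 (ENSMUSG00000052336, chr9:119901616-120069879), the fractalkine receptor of tissue macrophages, had 2102, 1772 and 1812 in the controls, 1849.98, 4028 and 3023 in the mutants given vehicle and 2034, 1256 and 2154 in the mutants given rapamycin, with mutant vehicle 1 inside the control range and mutant vehicle 2 and 3 the highest of the 9 (log2 fold change 0.58 ± 0.27, limma adjusted p = 0.508). Spi1 had 357 to 615 in the controls and 412 to 869.5 in the mutants given vehicle, so the groups overlapped (log2 fold change 0.61 ± 0.30). The annotated span of Cx3cr1 overlaps Wdr48 and Csrnp1, and Csf1r overlaps Hmgxb3 on the other strand. How the counting treated strand is not given in the sources used here. Levels of both genes are uncertain to that extent.

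The 3 C1q chains, which together form the recognition part of the first complement component, varied together. C1qa (ENSMUSG00000036887, chr4:136895917-136898803) had 2005, 1765 and 2964 in the controls, 1723, 4356 and 3889 in the mutants given vehicle and 2087, 1638 and 2298 in the mutants given rapamycin. C1qb (ENSMUSG00000036905, chr4:136880129-136886187) had 1820.2, 1575 and 2298 in the controls, 1648, 4068 and 3270.02 in the mutants given vehicle and 2048, 1512 and 2269.98 in the mutants given rapamycin. Mutant vehicle 1 lay inside the control range for C1qb and just below it for C1qa, and mutant vehicle 2 and 3 lay above every control for both. Their log2 fold changes were 0.49 ± 0.31 and 0.58 ± 0.29 (limma adjusted p = 0.71 and 0.575), and C1qc had 0.59 ± 0.31.

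The signalling adapters and activating receptors followed. Tyrobp (ENSMUSG00000030579, chr7:30413760-30417585), an adapter that passes signals from Trem2 and related receptors, had 571, 519 and 848 in the controls, 497, 1216 and 1087 in the mutants given vehicle and 559.5, 546 and 747 in the mutants given rapamycin. Fcgr3 (ENSMUSG00000059498, chr1:171051174-171064935), a low-affinity receptor for IgG, had 707, 528 and 776 in the controls, 582, 1454 and 1237 in the mutants given vehicle and 645, 725 and 942 in the mutants given rapamycin. Mutant vehicle 1 was below all but 1 control for Fcgr3 and below all controls for Tyrobp, and the other mutants given vehicle were above all controls. The fold changes were 0.46 ± 0.31 and 0.62 ± 0.30 on the log2 scale (limma adjusted p = 0.74 and 0.552). Fcer1g and Trem2 had 0.43 ± 0.27 and 0.40 ± 0.42.

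The 7 genes grouped with pattern recognition and scavenger receptors had a median log2 fold change of 0.58. Mrc1 (ENSMUSG00000026712, chr2:14229392-14332057), the mannose receptor CD206, had 6076, 4192 and 3787 in the controls, 6568, 12263 and 8101 in the mutants given vehicle and 4543, 4698 and 6104 in the mutants given rapamycin. Here all 3 mutants given vehicle exceeded all controls, with a log2 fold change of 0.92 ± 0.24 (limma adjusted p = 0.11). Cd163, the receptor that takes up haemoglobin bound to haptoglobin, had 393, 342 and 303 in the controls, 345, 1206 and 715 in the mutants given vehicle and 488, 467 and 532 in the mutants given rapamycin, with mutant vehicle 1 inside the control range (log2 fold change 0.95 ± 0.34, limma adjusted p = 0.31). Cd163 and, below, F13a1, Ms4a7 and S100a8 were named after their values were seen. Trem2 and Lyve1, below, also fall outside the rule for showing genes that is given with the data processing. The groups did not overlap for 4 genes in all, Mrc1, Cd14, Ccl3 and Ccl4, each higher in the mutants, where 7.2% of all genes were higher without overlap. No gene of the 36 was lower without overlap, against 6.14% of all genes. The F4/80 antigen Adgre1 and the endosomal protein Cd68 had log2 fold changes of 0.54 ± 0.19 and 0.58 ± 0.25.

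The 9 genes grouped as leukocyte surface and cytoskeleton genes, Itgam among them, had a median log2 fold change of 0.50. Laptm5 (ENSMUSG00000028581, chr4:130913125-130936141), a lysosomal membrane protein of blood cells, had 1904, 1649 and 2067 in the controls, 1610.2, 3740.4 and 3135 in the mutants given vehicle and 1758, 1684 and 2332 in the mutants given rapamycin. Lcp1 (ENSMUSG00000021998, chr14:75131101-75230842), the actin-bundling protein L-plastin, had 1864, 1588 and 1895 in the controls, 1848, 3802 and 2834 in the mutants given vehicle and 1939, 1609.6 and 2257 in the mutants given rapamycin. Again mutant vehicle 2 and 3 were the highest of all libraries for both genes, and the log2 fold changes were 0.51 ± 0.26 and 0.61 ± 0.23 (limma adjusted p = 0.587 and 0.334). Ptprc had 0.52 ± 0.24 and Cd52, a surface glycoprotein of leukocytes, 0.03 ± 0.33.

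Among the lysosomal and secreted products, Ctss (ENSMUSG00000038642, chr3:95526786-95556403) had 1001, 897 and 1179 in the controls, 974, 2098 and 1685 in the mutants given vehicle and 964, 1015 and 1343 in the mutants given rapamycin. Pf4 (ENSMUSG00000029373, chr5:90772435-90773383), a chemokine known from platelets and also made by macrophages, had 627, 534 and 868 in the controls, 659, 1738 and 1347 in the mutants given vehicle and 606, 525 and 787 in the mutants given rapamycin. Mutant vehicle 2 and 3 led both genes, at log2 fold changes of 0.57 ± 0.25 and 0.80 ± 0.32 (limma adjusted p = 0.466 and 0.39). Megakaryocyte and platelet genes were near 0 beside Pf4: 3 of 8 had no normalized count and the other 5 summed to 57.2 to 83.6 in the controls, 59.1 to 76.3 in the mutants given vehicle and 64.1 to 81.3 in the mutants given rapamycin. F13a1, the clotting factor XIII A chain that tissue macrophages also make, had 3561, 1328 and 1199.7 in the controls, 4158, 5039 and 2863 in the mutants given vehicle and 3493, 3561 and 4479.6 in the mutants given rapamycin. Control 1 lay within the mutant range and far above controls 2 and 3, and the log2 fold change was 1.13 ± 0.35 (limma adjusted p = 0.21). Without control 1 it was 1.63 with a limma adjusted p of 0.00313, and the part of the ribosomal and erythroid reads of that library was not tested.

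**Figure D2:**
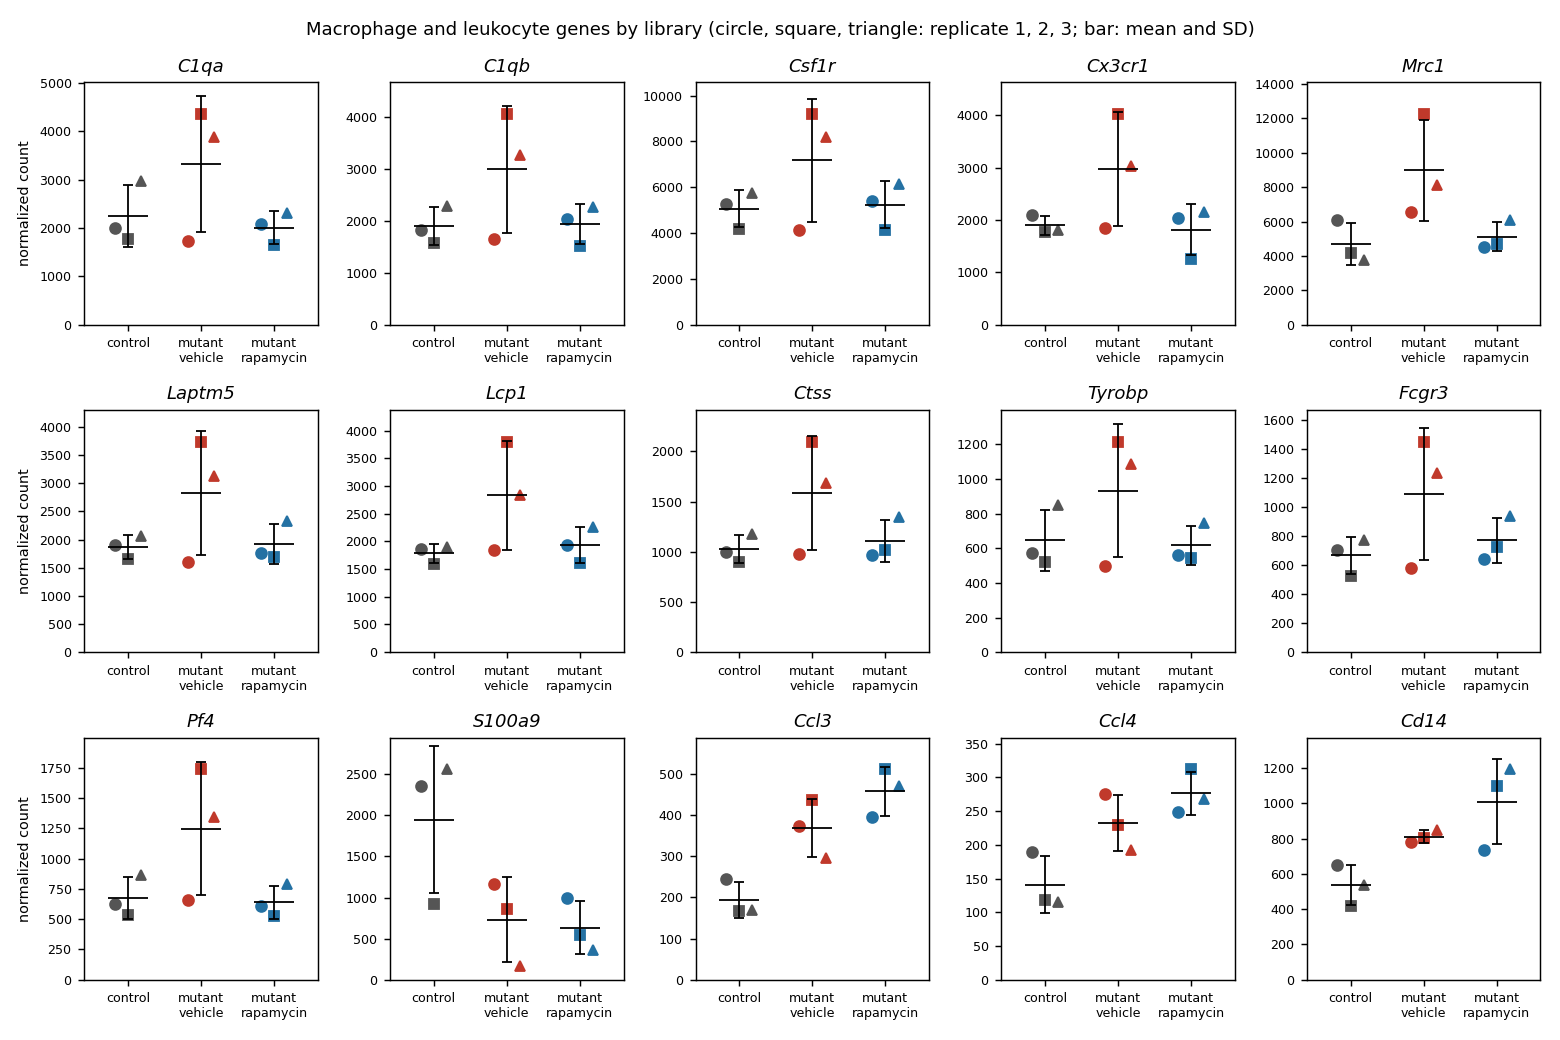
Normalized counts on linear axes from 0 for 15 of the genes in the 9 libraries, with a point per library (circle, square and triangle for replicates 1, 2 and 3) and a bar for the mean and SD of each group. In the first 11 panels except Mrc1, mutant vehicle 1 sits with the controls while mutant vehicle 2 and 3 sit higher, whereas Ccl3, Ccl4 and Cd14 lie above every control in all 6 mutant libraries.

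The neutrophil pair S100a8 and S100a9 gave the only negative log2 fold changes of the 36. S100a9 (ENSMUSG00000056071, chr3:90692632-90695721) had 2359, 921 and 2563 in the controls, 1169, 863 and 164 in the mutants given vehicle and 990.4, 546 and 359 in the mutants given rapamycin, and S100a8 had 1375, 541 and 1373 in the controls, 827, 500.1 and 73.6 in the mutants given vehicle and 495, 318 and 228 in the mutants given rapamycin. Control 2 was at the level of the mutants and mutant vehicle 3 was the lowest library, so the groups overlapped for both genes. The log2 fold changes were -1.69 ± 0.73 and -1.68 ± 0.80 (limma adjusted p = 0.479 and 0.551). The 14 neutrophil and granule genes ran likewise, summing to 6579, 2609 and 7604 in the controls, 3608, 2857 and 977 in the mutants given vehicle and 3304, 2049 and 1637 in the mutants given rapamycin. None of the 13 tested passed limma's test in any of the 3 comparisons. By limma-voom 0, 0 and 1 were called in the order mutant vehicle versus control, rapamycin versus mutant vehicle and rapamycin versus control. An unadjusted p under 0.05 was found for 3, 0 and 5, against 10.1%, 11.7% and 17.5% of all genes. The 3 were all lower, while of the 5 in rapamycin versus control 4 were lower and 1 was higher. In each of these 2 comparisons, 3 of the 13 had a positive log2 fold change. Ly6g, a defining neutrophil surface marker, was at 0 in rapamycin 1 and never above 6.86 normalized counts.

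Libraries with the same replicate number deviated together in this comparison (correlations 0.428, 0.137 and 0.445 for replicates 1, 2 and 3), so the numbers were taken to pair them. Unlike-numbered libraries of these groups correlated at -0.45 to 0.0647. Against rapamycin libraries, however, unlike numbers reached 0.471 (control 1 with rapamycin 2) and 0.391 (control 3 with rapamycin 1). The pairing of the 6 control and mutant vehicle libraries was thus read from these same data. With the replicate as a block over these 6 libraries, 3 of the 36 genes passed limma's test, each higher in the mutants: Ccl3 (log2 fold change 0.93, adjusted p = 0.00325), Ccl4 (0.74, adjusted p = 0.0106) and Cd14 (0.62, adjusted p = 0.0118). In that fit 1399 of all genes were called, or 7.12%, and 4.06% were called higher. With the block in the fit of all 9 libraries, 1 gene was called (Ccl3), near the 2.06% of all genes called there. Without mutant vehicle 1, 9 genes were called higher, against 1.32% of all genes: Cd163 (1.43), Pf4 (1.21), Mrc1 (1.12), Fcgr3 (1.02), C1qb (0.96), Cd68 (0.91), Lcp1 (0.88), Ctss (0.88) and Laptm5 (0.88), values being log2 fold changes. Mutant vehicle 1 was the lowest of its group for all 9. Leaving it out thus raises their fold changes, and these calls are no separate support. Without control 1, 4 were called higher, against 0.992% of all genes: F13a1, Ccl3, Mrc1 and Ccl4. Control 1 was the highest control for each of these 4, so the same holds.

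The second comparison asked how rapamycin changed these genes within the mutants. It shares the mutant vehicle libraries with the first, so opposite signs in both are not independent. Here 31 of the 36 log2 fold changes were negative, with a median of -0.46, against -0.01 over all genes, of which 48.6% were positive. None of the 36 passed limma's test or limma-voom, where limma called 0.3% of all genes, 0.244% higher and 0.056% lower, and 10 had an unadjusted p under 0.05, all lower with rapamycin, against 11.7% of all genes in either direction. By the authors' deposited table, the adjusted p was under 0.05 for 1 of the 36, Ms4a7.

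Ms4a7, a tetraspan protein of macrophages (ENSMUSG00000024672, chr19:11321039-11336146), had 277, 182 and 313 in the controls, 192, 439 and 319 in the mutants given vehicle and 129.7, 146 and 147 in the mutants given rapamycin. The 3 rapamycin libraries were below all 6 others, and the log2 fold change against the mutants given vehicle was -1.08 ± 0.29 (limma adjusted p = 0.174). Mrc1 was the other gene lower without overlap, at -0.77 ± 0.24 (limma adjusted p = 0.227), where 9% of all genes were lower without overlap. None of the 36 was higher without overlap, against 9.41% of all genes. Trem2, the lipid-sensing receptor that signals through Tyrobp, had 122, 163 and 271 in the controls, 114, 339 and 320.2 in the mutants given vehicle and 136, 86.9 and 151 in the mutants given rapamycin. Its log2 fold change was -0.93 ± 0.42 (limma adjusted p = 0.429), with rapamycin 3 above mutant vehicle 1. Pf4 and Spi1 had -0.87 ± 0.32 and -0.83 ± 0.30 in this comparison, Cx3cr1 had -0.68 ± 0.27, and the C1q chains lay between -0.55 and -0.63.

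Mutant vehicle 1 weighed on this comparison too. Without that library, 4 of the 36 genes passed limma's test, each lower with rapamycin: Ms4a7 (log2 fold change -1.40), Pf4 (-1.28), Lyz2 (-1.16) and Laptm5 (-0.85), where 1.02% of all genes were called and 0.336% were lower. For all 4 that library was the lowest of the mutants given vehicle, so these calls are no separate support. No other omission of 1 library gave a call. Ccl3, Ccl4 and Cd14 did not share the negative sign and had 0.32 ± 0.21, 0.26 ± 0.23 and 0.29 ± 0.20, and S100a8 and S100a9 had 0.07 ± 0.80 and 0.08 ± 0.73. Without mutant vehicle 3 the S100a8 and S100a9 values were -0.96 and -0.79.

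**Figure D3:**
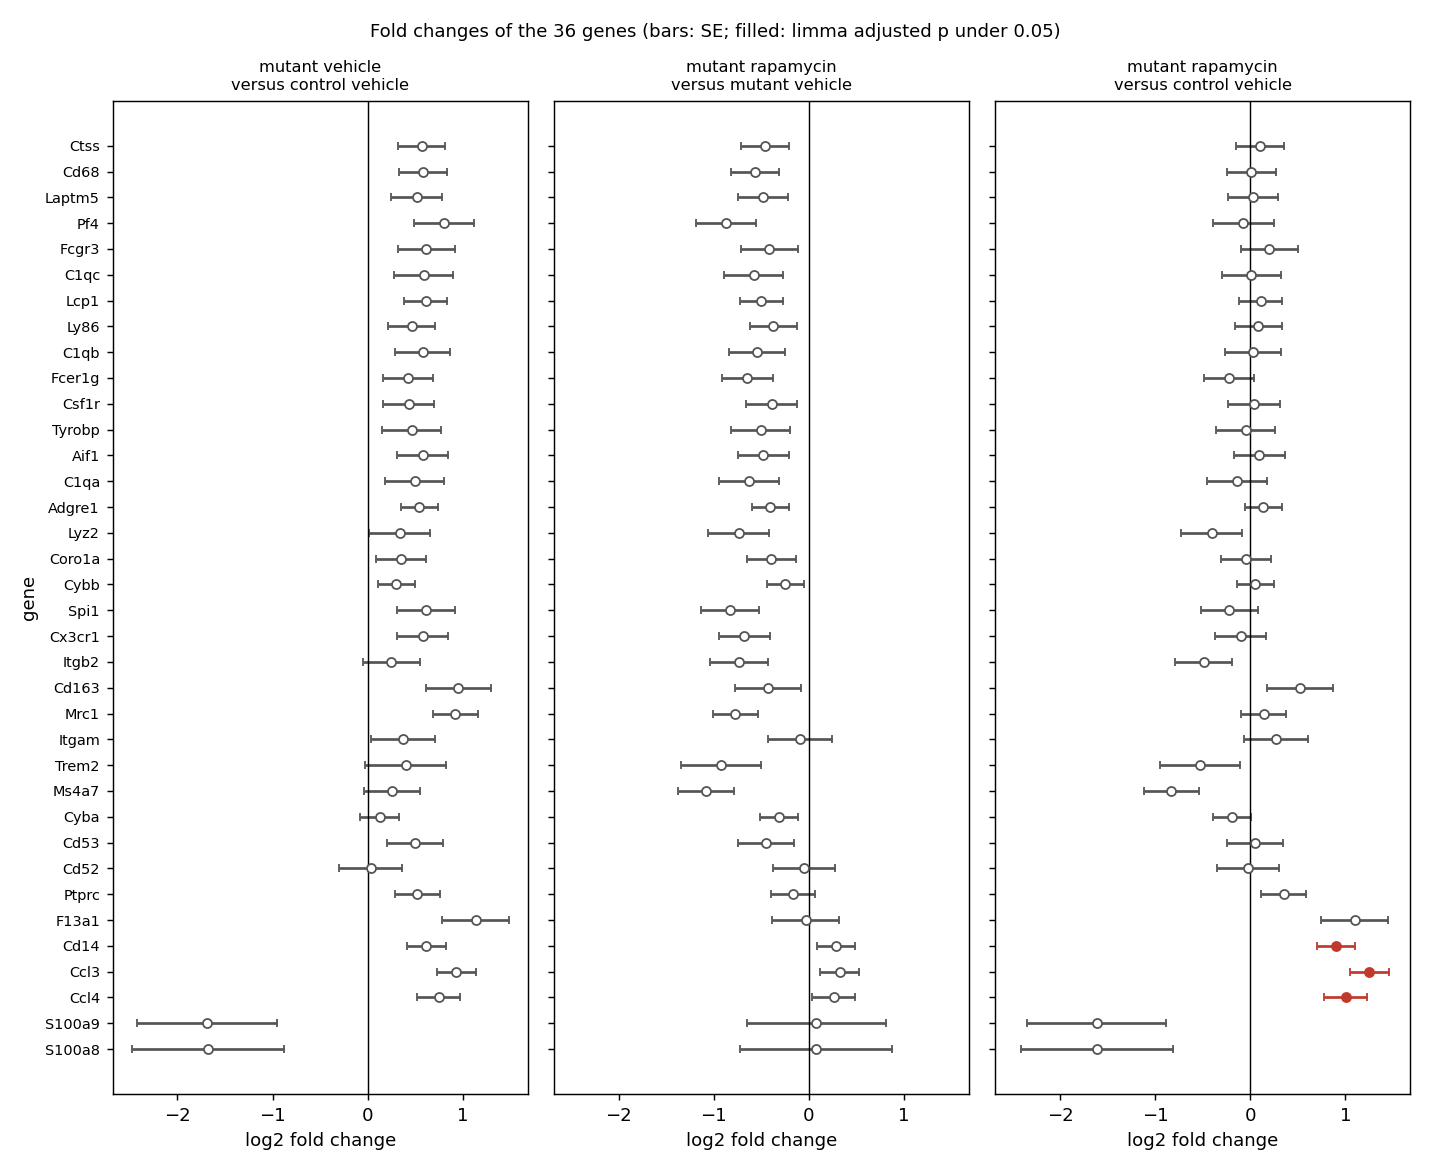
Log2 fold changes (points) with SE (bars) of the 36 genes in the 3 comparisons, from 1 limma fit over 9 libraries, with filled red points for an adjusted p under 0.05. Most genes lie right of 0 in the first panel, left of 0 in the second and around 0 in the third, where Ccl3, Ccl4 and Cd14 are the filled points.

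The third comparison set mutants given rapamycin against controls given vehicle, so genotype and drug differ together and cannot be told apart. Most macrophage genes were close to the control level: the median log2 fold change over the 36 was 0.03, and 21 were positive, against 49.3% of all genes. Limma called 3 of the 36, all higher in the mutants given rapamycin, where 3.24% of all genes were called, 2.3% higher and 0.941% lower. They were Ccl3, Ccl4 and Cd14, the same 3 genes that the authors' deposited table lists at an adjusted p under 0.05 in this comparison. The other 33 did not pass, and 5 of the 36 had an unadjusted p under 0.05, against 17.5% of all genes.

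Ccl3 (ENSMUSG00000000982, chr11:83647844-83649355), a chemokine that acts through Ccr1, had 244, 168 and 169 in the controls, 373, 436 and 297 in the mutants given vehicle and 394, 511 and 469 in the mutants given rapamycin. Every mutant library of either treatment exceeded every control, and 2 of the 3 rapamycin libraries exceeded all mutants given vehicle. It rose by 1.25 ± 0.21 on the log2 scale against controls (limma adjusted p = 0.00958). Ccl4 (ENSMUSG00000018930, chr11:83662584-83664683), its neighbour on chromosome 11 and a chemokine of the same family, had 189, 118 and 115 in the controls, 275, 229.8 and 192 in the mutants given vehicle and 249, 312 and 267 in the mutants given rapamycin. It too was higher in all 6 mutant libraries than in any control, and rose by 1.00 ± 0.23 with rapamycin against controls (limma adjusted p = 0.0408). Cd14 (ENSMUSG00000051439, chr18:36725074-36726736), the co-receptor that hands lipopolysaccharide to Tlr4, had 649, 420.2 and 538 in the controls, 778, 805 and 848 in the mutants given vehicle and 736, 1097 and 1193 in the mutants given rapamycin. The controls lay below all 6 mutant libraries, and Cd14 rose by 0.90 ± 0.20 against controls (limma adjusted p = 0.0367). Over the 9 fits that each left out 1 library, Ccl3 was called in 7, Cd14 in 4 and Ccl4 in 3, with adjusted p up to 0.0611, 0.170 and 0.180. The count fell to 0 without control 2 or rapamycin 2, and to 1, Ccl3, without control 3, mutant vehicle 2 or rapamycin 3.

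Relative to Csf1r in the same library, Ccl3 had 2.94% to 4.62% of the Csf1r count in the controls, 3.63% to 9.02% in the mutants given vehicle and 7.28% to 12.4% in the mutants given rapamycin. Cd14 had 9.38% to 12.3%, 8.75% to 18.8% and 13.6% to 26.5% in the same order. Ccl4 had 2.0% to 3.58%, 2.35% to 6.66% and 4.34% to 7.55%. For all 3 genes the rapamycin libraries lay above every control in this ratio, while the mutants given vehicle overlapped the controls. Ms4a7 ran the other way, at 4.36% to 5.46% of Csf1r in the controls, 3.90% to 4.77% in the mutants given vehicle and 2.39% to 3.54% in the mutants given rapamycin.

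Immediate early genes, which cell dissociation is known to induce, were higher in the same rapamycin libraries. A list of 13 of them, written after their values were seen, summed to 32747, 28890.2 and 26219 in the controls, 36349, 31400.1 and 33929 in the mutants given vehicle and 105774, 98528 and 72827 in the mutants given rapamycin. All 13 were called higher with rapamycin against controls, and 10 against the mutants given vehicle. Of all genes, 2.3% and 0.244% were called higher there. Since the list was chosen from these values, the counts describe that choice and are no test. Egr1 had 7422, 7619 and 6037 in the controls, 7059, 7617 and 6859 in the mutants given vehicle and 28598, 22834 and 16585 in the mutants given rapamycin, and Fos had 4562, 3732 and 2965 in the controls, 5248, 3663 and 4111 in the mutants given vehicle and 19708, 18800.3 and 12127 in the mutants given rapamycin. The rapamycin libraries were the highest for both by a wide margin, with no overlap. Ccl3 lay above all controls in the mutants given vehicle too. In those vehicle-treated mutants 11 of the 13 immediate early genes were positive against controls and limma called none. Of the 13, 6 were higher without overlap, against 7.2% of all genes, and 5 had an unadjusted p under 0.05, against 10.1%. By limma-voom 0 were called as well. Their part in the rise of Ccl3, Ccl4 and Cd14 was not tested.

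Ms4a7 was lower than in every control in all 3 rapamycin libraries, with a log2 fold change of -0.83 ± 0.29 that did not pass (limma adjusted p = 0.165). S100a8 was the other gene lower without overlap (-1.61 ± 0.80, limma adjusted p = 0.345), where 10.8% of all genes were lower without overlap. Cd163 was higher in every rapamycin library than in every control (0.52 ± 0.34, limma adjusted p = 0.486), as were Ccl3, Ccl4 and Cd14, where 12.4% of all genes were higher without overlap. F13a1 had 1.10 ± 0.35 (limma adjusted p = 0.13) and was called without control 1, at 1.60 with a limma adjusted p of 0.00249.

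Over the 9 libraries most of the 36 genes varied as a block. As a description with n = 9 libraries that share their depth and sort, 23 genes had a Pearson r of at least 0.8 with the mean of the other members on the log2 scale, and the median was 0.88. Ctss was the most typical at 0.98, followed by Cd68, Laptm5, Pf4 and Fcgr3 at 0.97. The C1q chains correlated with each other at 0.98 to 0.99, and Tyrobp and Fcer1g at 0.93. Ptprc stood lower at 0.43, and Cyba correlated with its oxidase partner Cybb at only 0.29.

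Among genes less like the others were a chemokine pair and an S100 pair. Ccl3 and Ccl4 had an r of 0.96 with each other but 0.25 and 0.08 with the rest. S100a8 and S100a9 had 0.99 with each other and -0.39 and -0.36 with the rest. F13a1 and Cd14, which are no such pair, had 0.36 and 0.31 with the rest. The other 30 genes, Ptprc among them, a grouping made after seeing these values, summed to 36526, 29185 and 39233 in the controls, 33230.1, 70058 and 56656 in the mutants given vehicle and 33636, 30263 and 40823 in the mutants given rapamycin, with only mutant vehicle 2 and 3 outside the control range by more than the SD of the controls.

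Outside the 36, the 8 genes with a mean of at least 50 counts whose levels were most like the members' mean were AB124611, Alox5ap, Il6ra, Rasal3, Fes, Nckap1l, Arhgap30 and Pik3cd, at r of 0.98 to 0.96 over the 9 libraries. Alox5ap is the activating protein of leukotriene synthesis, Nckap1l a blood cell subunit of the actin-regulating WAVE complex and Pik3cd the leukocyte catalytic subunit of phosphoinositide 3-kinase.

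Further macrophage genes ran in the same directions. Of 28 other macrophage genes 27 were tested, and 26 had a positive log2 fold change in mutants against controls with vehicle, with a median of 0.66. Limma called 2 of them higher, Hpgds and Maf, where 1.05% of all genes were called higher. An unadjusted p under 0.05 was found for 16 of the 27, all higher, against 10.1% of all genes in either direction. Without overlap 13 were higher, against 7.2% of all genes. Hpgds, the prostaglandin D synthase of haematopoietic cells, had 441, 316 and 278 in the controls, 629, 933 and 644 in the mutants given vehicle and 242, 329 and 340.2 in the mutants given rapamycin. It rose by 1.09 ± 0.22 in the mutants given vehicle (limma adjusted p = 0.0409) and was lower with rapamycin, at a log2 fold change of -1.26 ± 0.22 (limma adjusted p = 0.0495), with the rapamycin libraries at or below control levels. Maf, a transcription factor of resident macrophages that other kidney cells also express, had 4499.95, 3333 and 3217 in the controls, 6483, 6254 and 5218 in the mutants given vehicle and 4761, 5749.7 and 5043 in the mutants given rapamycin, and rose by 0.71 ± 0.15 (limma adjusted p = 0.0466). Lyve1, a hyaluronan receptor of vessel-associated macrophages and lymphatic vessels, had 1097, 472 and 507 in the controls, 1218, 2095 and 1145 in the mutants given vehicle and 867, 656 and 1083 in the mutants given rapamycin and did not pass (1.16 ± 0.33, limma adjusted p = 0.154).

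With rapamycin against vehicle in mutants, 22 of the same 27 genes were negative on the log2 scale (median -0.49). Limma called Hpgds alone, where 0.056% of all genes were called lower. An unadjusted p under 0.05 was found for 11, all lower, against 11.7% of all genes in either direction. By limma-voom none was called, with an adjusted p of 0.0536 for Hpgds. With rapamycin against controls, 20 of the 27 were positive, with a median log2 fold change of 0.28. Genes of immunoreceptor signalling and the leukocyte cytoskeleton had 14 of 18 positive with a median of 0.45 in the first comparison and 18 of 18 negative with a median of -0.49 in the second, and limma called none. By limma-voom 0 and 0 of the 18 were called. An unadjusted p under 0.05 was found for 5, all higher, and 8, all lower, against 10.1% and 11.7% of all genes in either direction.

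Lysosome genes were higher in part of the same libraries. All 19 had a positive log2 fold change in mutants against controls with vehicle, with a median of 0.42, and limma called 4 higher, among them Neu1 (0.87 ± 0.15), Hexa (0.79 ± 0.15) and Tpp1 (0.63 ± 0.11). Of all genes, 1.05% were called higher there. Neu1, Hexa and Tpp1 are enzymes of lysosomes in all cells. Neu1 had 917, 958 and 1165 in the controls, 1573, 1764 and 2232 in the mutants given vehicle and 1506, 1788 and 1551 in the mutants given rapamycin. Unlike the macrophage block, Neu1 was thus high in mutant vehicle 1 as well, but it was picked from the called genes. The 19 genes summed to 78551, 77544 and 94259 in the controls and 94693, 116849 and 125417 in the mutants given vehicle. In that sum mutant vehicle 1 was close to control 3, and mutant vehicle 2 and 3 stood above both. Of the 19, 10 were higher without overlap, against 7.2% of all genes. Macrophages and kidney cells cannot be told apart for such genes in bulk RNA.

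Lymphocyte genes were low in these libraries. Of 15 T and NK cell genes, 3 were tested (Cd4, Lck and Il2rb), 5 had no normalized count (among them Cd3e and Ncr1), and Cd8a was never above 3.67 normalized counts. Of 8 B cell genes 4 were tested, and Pax5 had no normalized count. None of these passed limma's test in any comparison, and 0 to 1 per list and comparison had an unadjusted p under 0.05. By limma-voom 0 T and NK cell genes and 0 B cell genes were called over the 3 comparisons. Of 6 mast cell genes only Hdc, the histamine-forming enzyme, was called, lower in the mutants given vehicle (-0.66 ± 0.13, limma adjusted p = 0.0301), at 2796, 2881 and 3106 in the controls, 2184, 1688 and 1705 in the mutants given vehicle and 2938, 2487 and 2604 in the mutants given rapamycin. In mutants against controls with vehicle, 4 of the 6 mast cell genes had a positive log2 fold change and 2 a negative one, with a median of 0.45. Of all genes, 0.366% were called lower in that comparison. The granule protease Cpa3 had at most 118. The 12 MHC class II and dendritic cell genes, 11 of them tested, summed to 725, 1284 and 1442 in the controls, 696, 1541 and 1816 in the mutants given vehicle and 1133, 1343 and 1878 in the mutants given rapamycin. Limma and limma-voom called none of the 11 in any comparison, and 1, 1 and 0 had an unadjusted p under 0.05.

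The 7 monocyte genes had other directions than most macrophage genes: 5 were negative in mutants against controls with vehicle (median -0.23) and 6 were positive with rapamycin against vehicle in mutants (median 0.74). Limma called none in the first comparison, as did limma-voom, and 1 had an unadjusted p under 0.05. In the second it called Nr4a1 (1.34 ± 0.14, limma adjusted p = 0.00508), a nuclear receptor that is also an immediate early gene. Against controls, Nr4a1 and the matrix protein fibronectin (Fn1, 0.73 ± 0.13, limma adjusted p = 0.0147) were called higher with rapamycin. Fn1 is made by many stromal and epithelial cells. Of all genes, 0.244% were called higher with rapamycin against vehicle in mutants and 2.3% against controls.

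Ligands that act on macrophages were not called in any comparison. Of 18 such genes 17 were tested, 16 had a positive log2 fold change in the first comparison, and 7, 8 and 8 had an unadjusted p under 0.05 in the 3 comparisons in the order above, with 0, 0 and 0 called by limma-voom. Of all genes, 10.1%, 11.7% and 17.5% had such a p. The 7 were all higher, the second comparison had 3 higher and 5 lower, and the third had 7 higher and 1 lower. Their sums were 10999.9 to 13396 in the controls, 13484 to 14743 in the mutants given vehicle and 16395 to 16753 in the mutants given rapamycin. Of the complement genes other than C1q, 11 were tested and limma called none, with 0, 0 and 1 called by limma-voom and 2, 6 and 3 at an unadjusted p under 0.05. The 2 were higher, the 6 were 1 higher and 5 lower, and the 3 were 1 higher and 2 lower.

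Genes of other cell types in the sort are set beside these values. With rapamycin against vehicle in mutants, 0.244% of all genes were called higher. Against controls 2.3% were called higher and 0.941% lower. Stromal genes summed to 130593 to 147257 in the controls, 120991 to 138963 in the mutants given vehicle and 185645 to 235781 in the mutants given rapamycin, and Col1a1 was called higher with rapamycin in both comparisons that include it (0.76 ± 0.13 and 0.58 ± 0.13, limma adjusted p = 0.0446 and 0.041). Proximal tubule genes summed to 21263 to 26697, 25612 to 28778 and 32728 to 44382, and limma called Lrp2, Slc3a1 and Slc22a6 higher with rapamycin against controls. Endothelial genes summed to 21119.9 to 24459, 19700.5 to 25443 and 27051 to 35920.1, and Kdr and Flt1 were called higher and Cldn5 lower in that comparison. The part of this shift in the macrophage values was not tested.

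**Figure D4:**
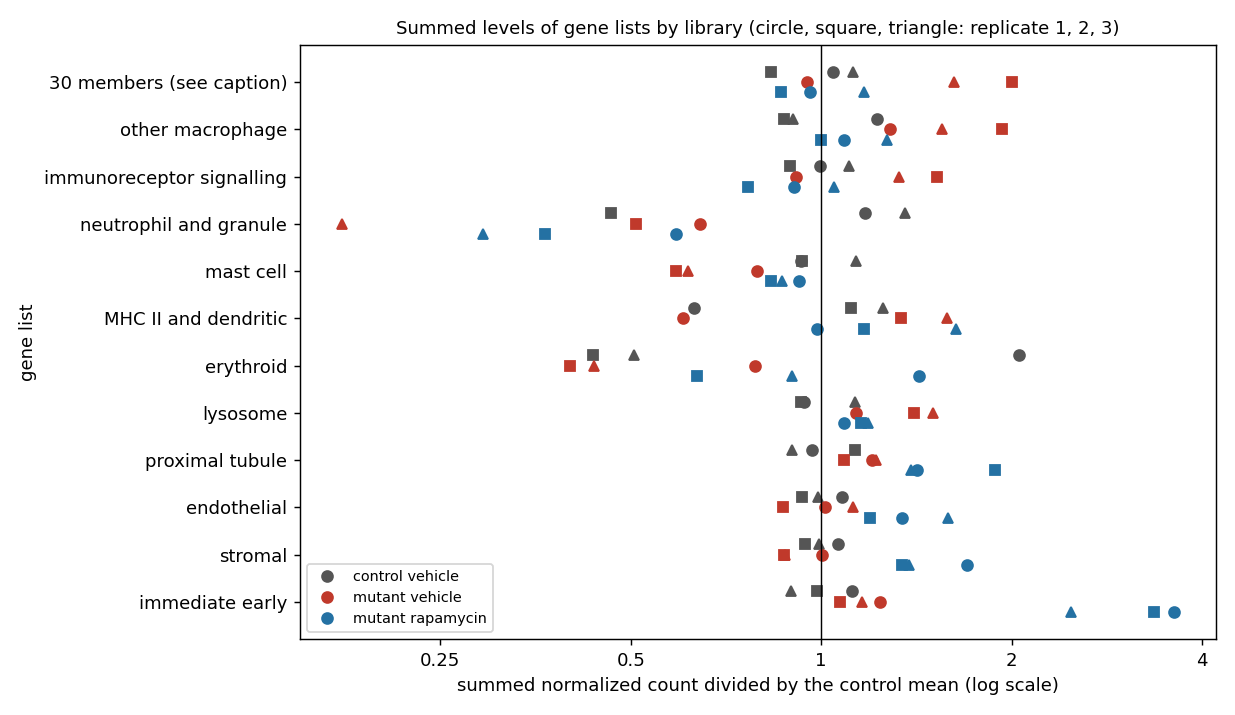
Summed normalized counts of gene lists in each library divided by the mean of the 3 controls, on a log axis, with colours for the groups and circle, square and triangle for replicates 1, 2 and 3. The first line is the 30 genes other than S100a8, S100a9, Ccl3, Ccl4, Cd14 and F13a1, where mutant vehicle 2 and 3 stand to the right, as they do for the other macrophage genes, while neutrophil genes lie to the left and immediate early genes to the right in the mutants given rapamycin.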

How the data were processed

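RNA of the 9 libraries was made with a stranded mRNA kit, per the labels' protocols. The submitters' processing notes name GRCm38 and the programs HTSeq 0.6.0, TopHat2 2.1.1, DESeq2 1.22.1 and cutadapt 1.18. The annotation release, and how counting treated strand, was not given in the sources used here. A single table of 54838 genes, deposited by the authors, holds raw counts, normalized counts (raw count divided by a size factor per library), and their own log2 fold changes and adjusted p-values. Raw counts are missing for 6252 genes, and 24539 genes, those with at least 10 raw counts in all, have a normalized count. Reads are not independent molecules.

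The test was limma 3.58.1 in R 4.3.3, with trend and robust options (statmod 1.5.0), on log2 of the normalized count plus a pseudocount of 1, in one fit of 3 group means over 9 libraries, for 19656 genes with a mean of at least 5. A call is an adjusted p (Benjamini-Hochberg, all tested genes) under 0.05, and the fit was tested on simulated data. The pseudocount makes fold changes of low genes too small. The tests edgeR and DESeq2 were not run. Some cells of the count columns hold a mark instead of a number, but the tested genes had raw counts, which limma-voom used. Levels per kilobase use exon length from GENCODE M21. Promoters are from RefSeq (GRCm38.p6).

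The 36 genes and all lists were chosen with earlier results of these data known. Results of a few list genes outside the 36 are not reported here. Values in every library are given for those of the 36 genes called in any comparison and, in each of 7 role groups, for the gene highest per kilobase and the gene with the smallest p in mutants against controls. List genes outside the 36 were named when called, and values in every library are given for only part of them. Same-numbered control and mutant vehicle libraries correlated at 0.428, 0.137 and 0.445 in their deviations from the group means, all above 0.1, and were treated as paired in the blocked fit. The labels do not state what the number marks, so the pairing comes from the data.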

Additional observations from a re-analysis of the deposited data

How the results depend on the processing

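Counts of called genes were recomputed under other pseudocounts, filters, scaling factors, limma-voom, a replicate block, 6 libraries alone and with libraries left out. No gene called in the reported fits changed sign under any of the 19 alternatives. Of the 36 genes 3, 6 and 20 did in the 3 comparisons in the order given next, each where libraries were left out, among them Cd52 in the first (to -0.23 without control 1) and S100a8 and S100a9 in the second (to -0.96 and -0.79 without mutant vehicle 3). Mutants against controls with vehicle gave 0 of the 36 genes as reported, 1 with the replicate block, 2 without control 1 and mutant rapamycin 2, 0 to 9 with 1 library left out (9 without mutant vehicle 1, 4 without control 1) and 3 with the block over only the 6 libraries compared, an alternative chosen after seeing the data. Rapamycin against vehicle in mutants gave 0, and 0 to 4 with 1 library left out. Rapamycin against controls gave 3, 1 with only the 6 libraries compared, 1 with the block over those 6, and 0 to 4 with 1 library left out. Replicate numbers did not pair the libraries in the last 2 comparisons (correlations -0.134, 0.0768 and 0.0614, and -0.338, -0.0139 and 0.218). Genes of the 17 other lists (211 genes, 181 tested) were called 8, 3 and 14 times in the 3 comparisons in the order above. With the block these counts were 13, 12 and 26, with only the 6 libraries 0, 7 and 8, and with the block over 6 libraries 36, 1 and 9. Without control 1 and mutant rapamycin 2 the second was 1. With 1 library left out they ranged from 0 to 18, 0 to 13 and 2 to 26, so these calls depend on single libraries. Leaving out a library also leaves a group of 2. The TMM factors shifted the median of all genes by 0.013 at most. The edgeR and DESeq2 alternatives were not run. The cause of these differences was not tested. The number of libraries, 3 a group, and the distance of mutant vehicle 1 from its group limit the precision of each fold change.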
